A study of Mus musculus with 20 samples.

Results

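The combined effect of tumour binding and payload was measured by setting 5 tumours treated with the anti-rHER2 T785-ISAC against 5 tumours treated with an isotype control antibody, across all 770 genes of an nCounter panel. These 10 tumours were chosen by their treatment label out of 20. The other 10 were 5 treated with plain anti-rHER2 and 5 with an isotype T785-ISAC. They serve below to place the levels, and in the limma fit they add to the shared estimate of the spread. Each tumour came from a different mouse. All mice were FVB/N-TgN(MMTV-Erbb2)NK1Mul/J, in which the MMTV promoter drives an Erbb2 transgene, so the controls carry it too, and were implanted under the skin at 6 to 8 weeks of age with MMC, 1 mouse mammary carcinoma line. Once tumours measured 200 to 500 mm3, mice received 5 mg/kg intraperitoneally, and tumours were taken at day 1. The 2 groups differ both in what the antibody binds and in whether it carries T785, so this comparison alone cannot tell the parts of target and payload apart.

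An immune-stimulating antibody conjugate (ISAC) is a tumour-binding antibody with an agonist of innate sensors coupled to it, here T785, which acts on TLR7 and TLR8. These endosomal receptors for single-stranded RNA signal through MyD88 to NF-kB, MAP kinases and interferon regulatory factors, mainly in macrophages, dendritic cells and other myeloid cells. Myeloid cells hold an antibody-coated target through Fc-gamma receptors and take it up, which brings a coupled agonist into the endosome. Activated myeloid cells are known to release chemokines and cytokines that call in neutrophils, monocytes and lymphocytes.

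The measured value is a signal, a count of probe molecules multiplied by 1 factor per tumour, and its floor is 1. No tumour with a factor above 1 held a value of 1, so the floor was not the same in all tumours. Probes differ in how well they count, so tests compare 1 gene between tumours, and sums or orders of signal over genes describe probe counts, not transcript levels. Recovered totals were 271793 to 395944 counts in the isotype antibody tumours and 398311 to 508433 in the ISAC tumours. Groups are given as mean ± SD over 5 tumours, and a fold change is the difference of mean log2(signal + 1), ISAC minus isotype antibody, ± its standard error from limma. A gene was called when the limma p, adjusted over the 770 genes, was below 0.05. The tissue label was set against epithelial genes. Epcam, the gene of an epithelial adhesion protein, stood at 5819.6 to 6533 in the isotype antibody tumours and 4390.2 to 5814 in the ISAC tumours, and Cdh1, which encodes E-cadherin, stood at 1013 to 1113 and 1047 to 1243.

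A large share of the panel had a higher signal in the anti-rHER2 ISAC tumours. In all, 343 of 770 genes were called (44.5%), of which 307 were higher (39.9%) and 36 lower (4.68%), and the median log2 fold change of all genes was 0.36. The 5 and 5 tumours did not overlap for 220 genes that were higher (28.6%) and 23 that were lower (2.99%). Rises reached further than falls, since 132 of the higher calls were at 1 or more on the log2 scale, 34 at 2 or more and 7 at 3 or more, against 7 lower calls at -1 or below and 0 at -2 or below. Of the 427 genes not called, 289 had a 95% confidence interval inside 1 log2 unit either way, and for the other 138 a change beyond that size was not excluded.

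The shift was also plain in values per tumour. The median signal of the 770 genes was 62.6, 48.9, 61.3, 53.2 and 56.3 in isotype antibody replicates 1 to 5 and 102, 75.8, 105.8, 91.6 and 92.4 in the ISAC replicates, a log2 difference of 0.72 (exact permutation test, 2-sided p = 0.00794, the smallest that 5 against 5 allows). Every ISAC tumour lay above every isotype antibody tumour. Genes above a signal of 20 numbered 487 to 517 in the isotype antibody tumours and 523 to 560 in the ISAC tumours, a difference of 41.0 in the means (exact permutation test, 2-sided p = 0.00794). The signal summed over the panel without reference genes was 327023 to 350393 against 388914 to 428582, a log2 difference of 0.27 (exact permutation test, 2-sided p = 0.00794). Adjusted over the 3 exact tests by Benjamini-Hochberg, each p stayed at 0.00794.

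All of these values rest on the scaling of the deposited table, in which the geometric mean of 20 reference genes is level across tumours. With equal medians of all genes, quantile normalization or median-ratio scaling, higher and lower calls were 92 and 277, 130 and 182, and 155 and 143, and 24.9%, 41.7% and 52.0% of calls were higher against 89.5% as deposited. Under these settings and equal means of a list of 19 reference genes, 88 of the 307 higher calls and 35 of the 36 lower calls were made again in the same direction every time, 32 higher calls were called lower at least once, and 0 lower calls were called higher. This check is one-sided. The first settings lowered the median fold change of all genes to -0.30, -0.095 and -0.021, and equal reference means left it at 0.35. None raised it, so a lower call could hardly be lost, and one that held is little tested by these scalings. A list's share of higher calls below is to be read against the 39.9% of all genes, and its lower calls against 4.68%. A share near these shows nothing about the list. Unless a sentence says otherwise, the call of each gene named below was made in the same direction under these 4 scalings, and list medians are those of the deposited scaling. RNA was taken from whole tumours, where more cells of a type and more RNA per cell cannot be told apart.

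**Figure D1:**
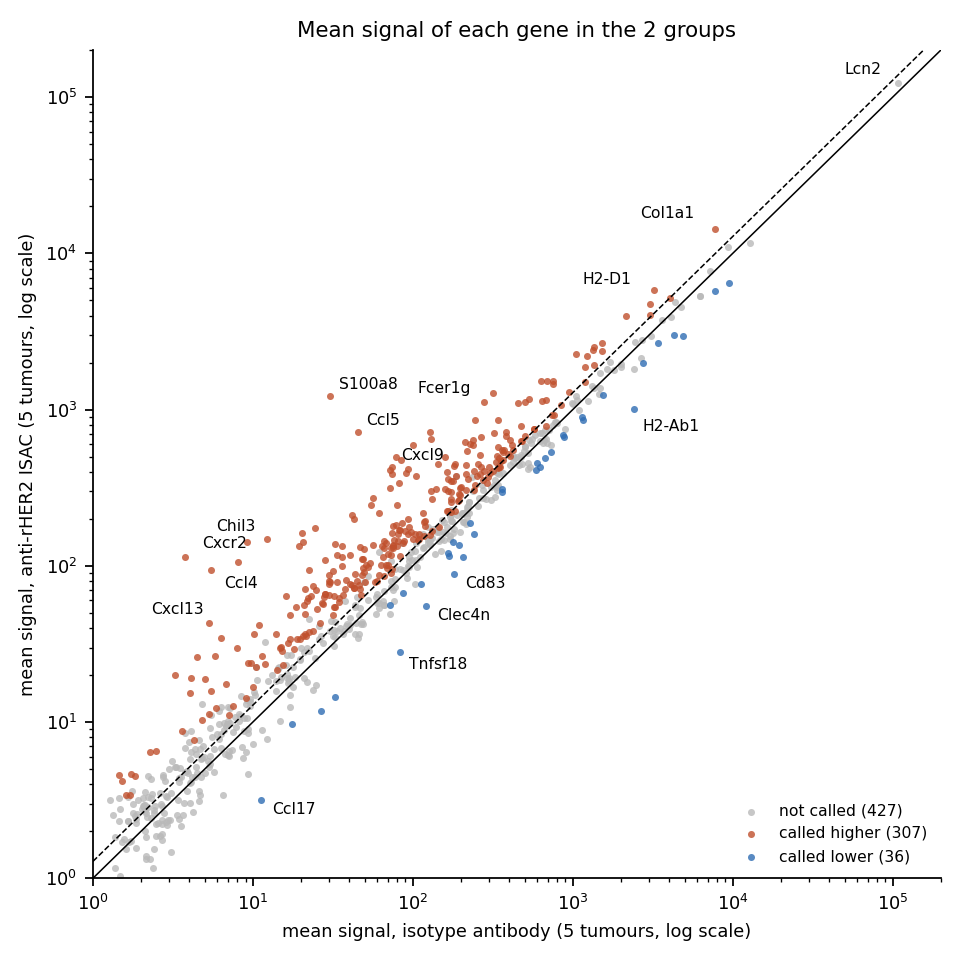
Mean signal of each of the 770 genes over the 5 isotype antibody tumours (x axis, log scale) and the 5 anti-rHER2 ISAC tumours (y axis, log scale), with 307 genes called higher, 36 called lower and 427 not called. The solid line marks equal signal and the dashed line the median log2 fold change of 0.36. Most points sit above the solid line, and Cxcr2, Ccl4 and S100a8 lie farthest above it.

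Calls were spread unevenly over the levels. Of 185 genes with a mean of up to 10 over all 20 tumours, 19 were higher and 0 lower, with a median fold change of 0.23. Among 163 genes between 30 and 100, 95 were higher and 4 lower, with a median of 0.70. Of 59 genes above 1000, 18 were higher and 10 lower, with a median of 0.11. Genes near the floor have little room to fall.

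In absolute signal, leaving out Lcn2, the mean was higher for 593 genes by 69727 in sum and lower for 176 genes, whose means fell by 20827 in sum. Among called genes that are not reference genes, the 12 largest rises made up 30.8% of the first sum and the 8 largest falls 33.0% of the second. Col1a1, which encodes a chain of type I collagen, had the largest rise among them, by 6519.5. It was 8306, 10236, 7019.6, 6009 and 7320.2 in the isotype antibody tumours and 15118, 9799, 16546, 11626 and 18400.0 in the ISAC tumours, so the groups overlapped, and the log2 fold change was 0.86 ± 0.17 (adjusted p = 3.8e-04 by limma). The MHC class I heavy chain genes H2-D1 and H2-K1 rose by 2569.9 and 1700.5 in signal, and Fn1, the fibronectin gene, by 1796. Further large rises were those of Ccl8 (1205), S100a8 (1195), Clu (1174), App (1159.6), Ctss (1147), Txnip (1086), C1qb (974) and Vim (973). Among these 12 genes the call held under all 4 other scalings for S100a8 alone, the sign turned for H2-K1, App and Vim with equal medians, and it turned for App and Vim with median-ratio scaling too.

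The reference genes Rpl19 and Ppia fell by 3029 and 2005, more than any other gene of the panel. Among called genes that are not reference genes, the 3 largest falls were of class II presentation genes. H2-Aa, the alpha chain gene of I-A, fell by 1928, its partner H2-Ab1 by 1411 and the invariant chain gene Cd74 by 1256. The other 5 of the 8 largest among these were Tfrc, the transferrin receptor gene (-773), the tetraspanin gene Cd9 (-749), the proteasome subunit gene Psmb7 (-296), C1qbp, whose product is a mitochondrial protein that also binds C1q (-236), and Myc, a transcription factor of growth (-217). Tfrc is also used as a reference gene on such panels, and its signal was 2599, 2535, 3295, 3168 and 2173 against 2081, 2003, 1804, 2077 and 1942, or -0.46 ± 0.15 on the log2 scale (adjusted p = 0.0156 by limma). All 8 calls held under the other scalings, which little test a lower call.

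**Figure D2:**
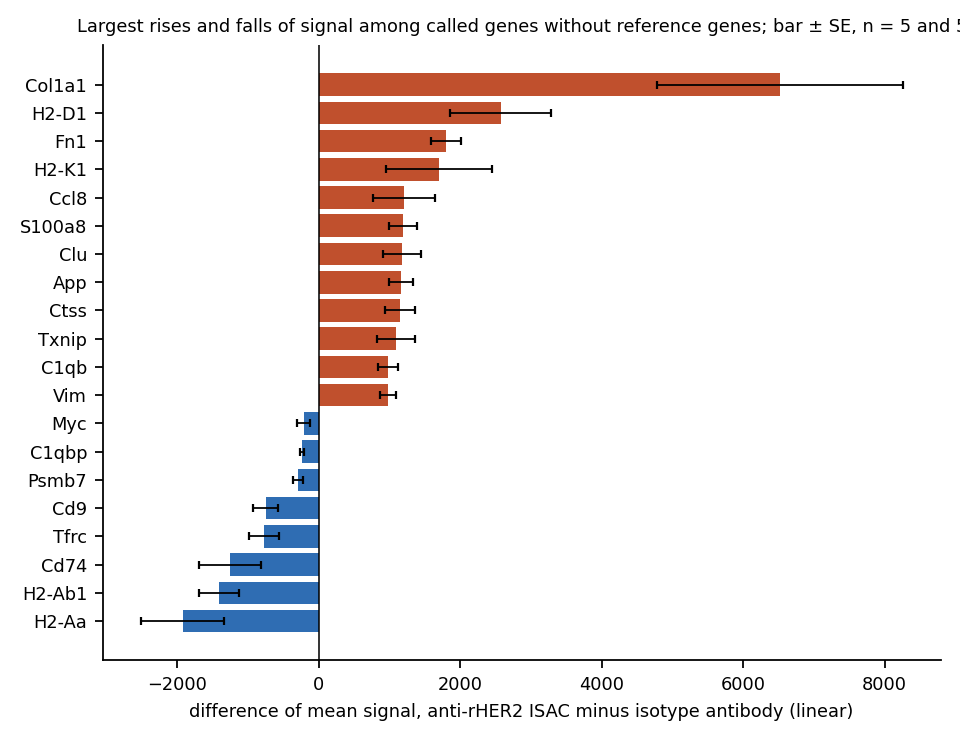
Difference of mean signal on a linear scale (x axis, anti-rHER2 ISAC minus isotype antibody, 5 tumours each) for the 12 largest rises and 8 largest falls among called genes other than reference genes, with bars ± the standard error of the difference. Col1a1 stands out on the right with a rise of 6519.5, and H2-Aa, H2-Ab1 and Cd74 lead on the left.

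Genes of the sensors that T785 addresses did not all move. Tlr8 was 79.98, 49.8, 80.1, 78.4 and 108 in the isotype antibody tumours and 272, 205, 278, 215 and 249.9 in the ISAC tumours, without overlap, which limma put at 1.64 ± 0.17 (adjusted p = 3.1e-07). Tlr7 was 33.9, 11.5, 18.9, 27.9 and 20.4 against 38.4, 25.7, 35.1, 26.3 and 17.9 and was not called, at 0.37 ± 0.27, with a 95% interval of -0.18 to 0.93 (limma adjusted p = 0.278). Tlr9, the endosomal receptor for DNA, was called at 1.42 ± 0.28, and Cd180, a TLR4-like receptor of B cells and macrophages, at 2.04 ± 0.23. In the list of endosomal TLR and MyD88 pathway genes 9 of 20 were higher (45.0%, near the 39.9% of all genes) and 0 lower. Its median was 0.31 against 0.36 for all genes, and 4 of the 9 calls held under the other scalings. The median turned to -0.40, -0.27 and -0.087 with equal medians, quantile normalization and median-ratio scaling.

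Downstream of the sensors, 17 of 32 NF-kB and MAP kinase genes were higher (53.1%, against 39.9% of all genes) and 1 lower. Their median of 0.33 was below 0 under the same 3 scalings, and 3 of the 18 calls held. Fos, an immediate early transcription factor gene, was 79.03, 97.7, 152, 126 and 345 against 493, 526, 167, 661 and 649.9, with ISAC replicate 3 inside the range of the isotype antibody tumours, at 1.69 ± 0.37 (limma adjusted p = 0.00102). Ikbke, the gene of an inducible kinase upstream of interferon regulatory factors, was called at 1.51 ± 0.19. The feedback inhibitor genes Tnfaip3 (1.15 ± 0.19) and Nfkbia (1.05 ± 0.18) were called as deposited, but not under every scaling. In the JAK-STAT list 9 of 12 were higher (75.0%) and 0 lower, with a median of 0.58 that turned to -0.14 with equal medians, and 0 of the 9 calls held under all scalings. Among its called members were Socs3 (1.40 ± 0.22), a cytokine-induced inhibitor gene, Stat4 (0.90 ± 0.31) and Stat2 (0.85 ± 0.23).

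Fc receptor genes and their signalling partners came next. Of 12 measured, 9 were higher (75.0%, against 39.9% of all genes) and 0 lower with a median of 1.27. The same 9 were without overlap (75.0%, against 28.6% of all genes) and held under the other scalings. Fcgr4, an activating IgG receptor of mouse myeloid cells, was 109, 123, 140.2, 150.2 and 127 against 636, 576, 863, 535 and 655, or 2.31 ± 0.15 on the log2 scale (adjusted p = 1.1e-09 by limma). Fcer1g, the shared signalling chain, was 271, 209.8, 316, 318 and 279 against 1156, 899.9, 1405, 974 and 1151. The lowest ISAC value of each was more than the highest isotype antibody value. Fcgr1, the high-affinity IgG receptor gene, was called at 1.51 ± 0.19. Fcgr3, a low-affinity activating receptor gene, was 125 ± 29.6 against 178 ± 50.9 and was not called (limma adjusted p = 0.0576).

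Neutrophil genes held the 2 largest fold changes of the panel. S100a8, one of the calprotectin subunit genes, was 41.4, 22.03, 25.9, 37.2 and 25.2 in the isotype antibody tumours and 1335, 574, 1783, 1349 and 1085 in the ISAC tumours, which limma put at 5.24 ± 0.30 (adjusted p = 4.2e-10). Cxcr2, the receptor gene for neutrophil-attracting CXC chemokines, was 1, 2.87, 2.36, 6.65 and 5.82 against 129.8, 71.9, 161, 116 and 87.4, at 4.70 ± 0.36. Both were lowest in ISAC replicate 2, which was still above every isotype antibody tumour. Csf3r, which encodes the G-CSF receptor, was 19.8, 16.3, 15.3, 23.9 and 21.4 against 151, 61.6, 179.5, 143 and 134, again lowest in ISAC replicate 2. Fpr2, a formyl peptide receptor gene, was 10.3, 4.79, 8.25, 7.98 and 8.74 against 118, 70.2, 141, 100.1 and 99.7. The integrin genes Itgam and Itgb2, whose products form CR3 and are shared with macrophages, were called at 2.64 ± 0.18 and 2.47 ± 0.17, and Mmp9, a granule protease gene, at 1.96 ± 0.22.

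Over the neutrophil list, 9 of 16 were higher (56.25%, against 39.9% of all genes) and 0 lower with a median of 1.47. Of the 9 calls 8 held under the other scalings. The genes not called included granule genes made before neutrophils leave the marrow, Elane at 2.56 ± 1.41 against 2.25 ± 2.34 and Mpo at 2.64 ± 1.86 against 3.53 ± 0.964, which are near the floor and were picked out after their values were seen. Lcn2, a neutrophil granule gene that epithelial tumour cells also express, had the highest signal of the panel, 108829.6, 108312, 103733, 102499.9 and 114717 against 125589, 134357, 96184, 132709 and 126769.5, and was not called (0.19 ± 0.10, limma adjusted p = 0.167). Lcn2 made up most of the summed signal of the list, which overlapped between the groups, at 103357 to 115620 against 101077 to 136752.

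Chemokine genes for monocytes and T cells formed the list with the highest median, 2.24. Of its 11 genes 9 were higher (81.8%, against 39.9% of all genes) and 0 lower. Ccl5, a chemokine gene of T cells, NK cells and myeloid cells, was 46.1, 23.9, 64.8, 30.6 and 60.2 against 946, 436, 1123, 474 and 638, or 3.97 ± 0.28 on the log2 scale (adjusted p = 2.7e-09 by limma). Ccl4, a chemokine gene of activated macrophages, was 4.7, 3.83, 4.71, 5.32 and 8.74 against 71.3, 82.2, 153, 91.6 and 72.8, at 3.86 ± 0.32. Ccl3 was 8.47, 11.5, 16.5, 5.32 and 19.4 against 128, 122, 268, 128 and 95.2, at 3.52 ± 0.41. All 3 were highest in ISAC replicate 3, and no ISAC tumour reached down to the isotype antibody range. Among ligands of the monocyte receptor CCR2, Ccl2 was 107, 108, 95.5, 67.8 and 126 against 474, 385, 1152, 436 and 522 and Ccl12 and Ccl7 were called at 2.43 ± 0.29 and 2.24 ± 0.24. Calls of Ccl8 (1.09 ± 0.39) and Ccl11 (1.04 ± 0.25), the eotaxin gene, did not hold under every scaling, and 6 of the 9 did. Ccl6, at 169, 101, 40.2, 100.1 and 17.9 in the ISAC tumours, was among the 5 genes of widest spread there and was not called (limma adjusted p = 0.587).

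Genes for neutrophil-attracting chemokines were seldom called higher. In the list of neutrophil chemoattractants 1 of 9 was higher (11.1%, against 39.9% of all genes), Cxcl2 (1.14 ± 0.36, not under every scaling). Another 2 were lower (22.2%, against 4.68% of all genes). Of the 9, 5 had a mean below 10 in the isotype antibody tumours, and few genes of low signal were called in the panel as a whole. Cxcl1 was 31.99, 32.6, 23.6, 34.6 and 39.8 against 18.3, 13.7, 10.3, 17.8 and 12.3, which limma put at -1.12 ± 0.22 (adjusted p = 3.8e-04), and no ISAC tumour reached the isotype antibody range. Cxcl15 was 25.4, 21.1, 35.4, 21.3 and 31.1 against 9.14, 17.1, 11.3, 15.3 and 5.6, at -1.19 ± 0.25. The median of the list was 0.27 and turned below 0 with equal medians, quantile normalization and median-ratio scaling.

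Of the other chemokines, 6 of 19 were higher (31.6%) and 3 lower, with a median of 0.52 that turned to -0.12 with equal medians, and 5 of the 9 calls held. Cxcl13, which attracts B cells through CXCR5, was 2.82, 4.79, 8.25, 3.99 and 6.8 against 28.4, 33.4, 45.4, 30.5 and 78.4, at 2.77 ± 0.41 (limma adjusted p = 2.2e-05). Cxcl9, an interferon-gamma-induced ligand of CXCR3, was 119, 60.4, 82.5, 67.8 and 41.7 against 482, 235, 736, 277 and 426, at 2.49 ± 0.38. Its partner Cxcl10 was 102, 67.1, 87.2, 54.5 and 70.9 against 150.0, 98.5, 163, 155 and 167, with overlapping groups, and its call (0.94 ± 0.31) did not hold under every scaling. Lower were Ccl17, a CCR4 ligand of dendritic cells (11.2 ± 4.67 against 3.16 ± 1.66), Ccl1 (17.5 ± 1.44 against 9.69 ± 3.52) and Xcl1, which attracts cross-presenting dendritic cells (205 ± 47.1 against 114 ± 13.9), while Ccl21a, of wide spread in the ISAC tumours (4.24 to 89.8), was not called. For receptors, 6 of 19 were higher (31.6%) and 0 lower with a median of 0.51 that turned to -0.16 and -0.13 with equal medians and quantile normalization, among them Ccr7 (1.82 ± 0.30) and Ccrl2 (1.44 ± 0.24).

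**Figure D3:**
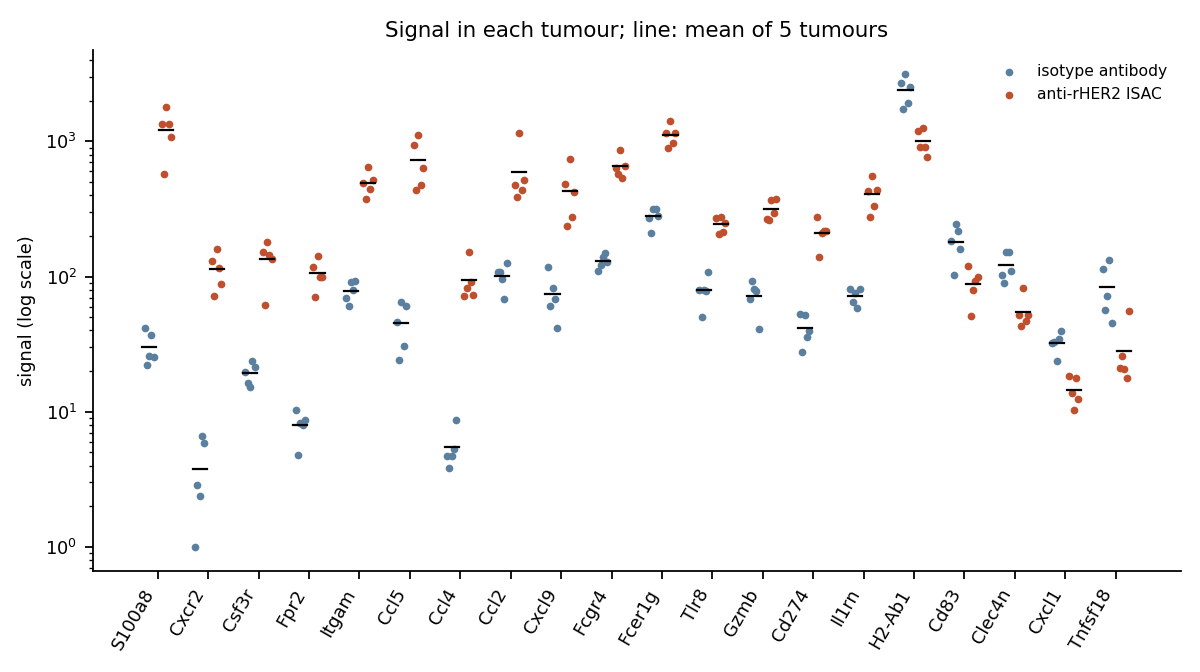
Signal of 20 genes in each of the 5 isotype antibody and 5 anti-rHER2 ISAC tumours (y axis, log scale), with a line at each group's mean. From S100a8 to Il1rn every ISAC tumour lies above every isotype antibody tumour, while H2-Ab1, Clec4n and Cxcl1 lie below without overlap and Cd83 and Tnfsf18 overlap.

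A few genes were near the floor in the controls. Cxcr2, Ccl4 and Cxcl13 were below 10 in all 5 isotype antibody tumours and above 20 in all 5 ISAC tumours, and 0 genes did the opposite. Their means went from 3.74 ± 2.396, 5.46 ± 1.91 and 5.33 ± 2.18 to 113 ± 35.1, 94.1 ± 33.7 and 43.2 ± 20.8. Another 115 genes were below 10 in all 10 tumours.

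Promoters are shown for the 4 called genes of highest fold change whose region from 250 bases before to 50 after the start holds at least 1 of GAAANNGAA, a core of interferon-stimulated response elements, and GGNNTTTCC, a core of NF-kB sites. Each is written 5′ to 3′ on the strand of the gene, from RefSeq on GRCm38.p6, at chr3:106167515-106167814 (minus strand) for Chil3, chr11:83649329-83649628 (minus) for Ccl3, chr4:126024409-126024708 (plus) for Csf3r and chr5:92328030-92328329 (minus) for Cxcl9, with matches to either motif on either strand in capitals.
Chil3: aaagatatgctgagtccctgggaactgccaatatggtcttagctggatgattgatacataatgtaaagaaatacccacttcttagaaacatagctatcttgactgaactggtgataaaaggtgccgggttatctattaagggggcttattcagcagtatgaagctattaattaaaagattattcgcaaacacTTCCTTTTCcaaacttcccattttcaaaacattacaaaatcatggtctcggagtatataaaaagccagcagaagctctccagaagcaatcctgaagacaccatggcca
Ccl3: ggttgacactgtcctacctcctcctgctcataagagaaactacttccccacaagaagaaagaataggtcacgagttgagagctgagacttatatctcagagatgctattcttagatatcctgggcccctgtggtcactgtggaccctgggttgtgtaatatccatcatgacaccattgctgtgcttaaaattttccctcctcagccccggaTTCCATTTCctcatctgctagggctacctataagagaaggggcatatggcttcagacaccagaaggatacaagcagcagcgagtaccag
Csf3r: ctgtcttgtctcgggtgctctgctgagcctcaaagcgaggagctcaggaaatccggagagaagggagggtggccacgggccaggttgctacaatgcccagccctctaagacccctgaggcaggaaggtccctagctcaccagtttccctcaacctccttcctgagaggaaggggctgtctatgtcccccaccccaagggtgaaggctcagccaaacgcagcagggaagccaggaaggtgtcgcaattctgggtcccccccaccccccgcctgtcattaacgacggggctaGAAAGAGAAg
Cxcl9: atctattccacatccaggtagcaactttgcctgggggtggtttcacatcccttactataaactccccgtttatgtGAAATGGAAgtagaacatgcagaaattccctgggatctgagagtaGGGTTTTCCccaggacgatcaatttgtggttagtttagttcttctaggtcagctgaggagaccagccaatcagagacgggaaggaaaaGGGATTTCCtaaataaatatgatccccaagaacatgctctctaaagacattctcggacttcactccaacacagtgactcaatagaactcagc

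The first 3 promoters hold 1 GAAANNGAA match each, and Cxcl9 holds 1 of these and 2 of GGNNTTTCC. GAAANNGAA, on either strand, was in a promoter of 9.76% of the 27025 genes in the table, of 15.8% of the 569 panel genes found there, of 41 of 232 higher genes (17.7%) and of 3 of 28 lower genes (10.7%). GGNNTTTCC was in a promoter of 6.62% of all genes, 14.1% of panel genes, 42 of 232 higher genes (18.1%) and 5 of 28 lower genes (17.9%). For TTCNNNGAA, a STAT core, these shares were 9.55%, 14.1%, 14.2% and 10.7%, and for TGANTCA, an AP-1 core, 8.97%, 13.0%, 12.5% and 7.14%. Promoters of this immune panel as a whole held all 4 motifs more often than those of all genes, and higher genes stood close to the panel. Matches of different motifs may overlap, and a match is a run of letters that was not tested as a binding site.

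Macrophage and monocyte markers followed, with 13 of 20 higher (65.0%, against 39.9% of all genes) and 0 lower and a median of 0.74. Of the 13 calls 7 held under the other scalings. Chil3, which encodes a chitinase-like secreted protein of mouse macrophages and neutrophils, was 12.2, 4.79, 18.9, 1.33 and 8.74 against 240.5, 122, 72.2, 73.8 and 203, at 3.98 ± 0.73 (limma adjusted p = 2.3e-04). Every ISAC tumour was above the isotype antibody range, though Chil3 varied widely within each group. Slc11a1, a metal transporter gene of phagosomes, was 20.7, 15.3, 25.9, 21.3 and 19.4 against 151, 95.04, 181, 106 and 174, at 2.70 ± 0.20, and the scavenger receptor gene Msr1 was called at 2.11 ± 0.17. Cd163, a haemoglobin scavenger receptor gene, was 128, 63.4, 53.6, 55.98 and 19.1 in the ISAC tumours, among the widest spreads there, and its call (1.26 ± 0.43) did not hold under every scaling. The summed signal of the list was 6660 to 10607 in the isotype antibody tumours and 8876 to 11406 in the ISAC tumours, and how far the other lists moved with the number of these cells was not tested.

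Receptors that recognise microbes and dying cells were mostly called higher as deposited. Among C-type lectin and phagocytic receptor genes 12 of 16 were higher (75.0%) and 1 lower with a median of 0.78, and 5 of the 13 calls held. Trem1, an amplifier of neutrophil and monocyte activation, rose from a low level, 4.12 ± 3.35 to 19.1 ± 5.01, at 2.19 ± 0.43, and Clec4a2, an inhibitory lectin gene of dendritic cells, was called at 2.17 ± 0.19. Clec4n, which encodes dectin-2, a receptor for fungal mannans, was 104, 90.05, 153, 152 and 111 against 52.1, 42.8, 82.5, 46.6 and 51.5, or -1.14 ± 0.21 on the log2 scale (adjusted p = 2.5e-04 by limma), and no ISAC tumour reached the isotype antibody range.

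In the complement list 10 of 29 were higher (34.5%, below the 39.9% of all genes) and 1 lower, with a median of 0.47 that turned to -0.17 with equal medians, and 6 of the 11 calls held. The anaphylatoxin receptor genes C5ar1 and C3ar1 were called at 2.06 ± 0.23 and 2.00 ± 0.16. Serping1, the C1 inhibitor gene, was 412, 266, 399, 280.5 and 338 against 1045, 607, 933, 786 and 945, at 1.34 ± 0.18, and Cfb, factor B of the alternative pathway, was called at 1.30 ± 0.27 with overlapping groups. C1qb was called at 0.85 ± 0.13, not under every scaling, and Cfd, factor D, ran from 4.28 to 71.7 in the ISAC tumours and was not called.

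Among inflammatory cytokine genes the largest fold changes were those of 2 inhibitors. Of 20, 8 were higher (40.0%, the share of all genes being 39.9%) and 0 lower, with a median of 0.49 that turned to -0.12 with equal medians, and 4 of the 8 calls held. Il1rn, the interleukin-1 receptor antagonist gene, was 80.9, 65.1, 75.4, 58.5 and 81.5 against 433, 278, 558, 334 and 440.3, which limma put at 2.45 ± 0.18 (adjusted p = 2.7e-09), and Il10, an inhibitory cytokine gene, was 4.7, 3.83, 5.89, 3.99 and 3.88 against 24.7, 26.5, 47.5, 18.7 and 12.3, at 2.18 ± 0.33. Osm was called at 1.90 ± 0.37. Il6 (3.598 ± 2.57 against 8.76 ± 2.62), Il12b (11.9 ± 4.91 against 23.4 ± 9.76) and Ptgs2, the cyclooxygenase-2 gene (22.5 ± 10.8 against 93.5 ± 51.3), were called as deposited but not under every scaling, and Tnf was 6.56 ± 3.57 against 9.83 ± 7.87 and was not called (limma adjusted p = 0.361). In the receptor list 13 of 32 were higher (40.6%) and 0 lower with a median of 0.56 that turned to -0.074 with equal medians, among them Il1r2 (2.11 ± 0.34), which encodes a decoy receptor for interleukin-1, Il21r (1.85 ± 0.26) and Il2ra (1.86 ± 0.50, not under every scaling).

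Interferon-stimulated genes were called higher, while Ifnb1 was not. Of 33 in the type I response list, 20 were higher (60.6%, against 39.9% of all genes) and 0 lower. The list median of 0.69 turned to -0.030 with equal medians, and 4 of the 20 calls held under all scalings. Ifitm1, which encodes a membrane protein that restricts virus entry, was 21.6, 11.5, 25.9, 21.3 and 21.4 against 159, 101, 228, 136 and 182, or 2.92 ± 0.26 on the log2 scale (adjusted p = 5.3e-08 by limma). Oasl1 and Irf7 were called at 1.64 ± 0.23 and 1.33 ± 0.26, and Ifit3 at 1.31 ± 0.31, not under every scaling. Ifnb1 was 3.76, 1.92, 1.18, 2.66 and 2.91 against 1, 1.71, 1.03, 3.39 and 2.24, at the level of a few counts, and was not called (limma adjusted p = 0.529).

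For the interferon-gamma response 12 of 20 were higher (60%) and 1 lower with a median of 0.89, and 4 of the 13 calls held. Ifng itself was 1.88, 2.87, 2.36, 1.33 and 3.88 against 7.32, 8.56, 9.29, 4.24 and 3.36, with overlap, and its call (1.09 ± 0.33) did not hold under every scaling. Cd274, which encodes the checkpoint ligand PD-L1, was 52.7, 27.8, 51.9, 35.9 and 39.8 against 275, 139, 212, 216 and 216, at 2.32 ± 0.30 (limma adjusted p = 5.4e-06). Gbp5, a guanylate-binding protein gene, was called at 1.46 ± 0.32. The 1 lower gene of the list was Ciita, the master regulator gene of MHC class II, picked out after its value was seen, at 86.6 ± 10.9 against 66.6 ± 17.4, or -0.40 ± 0.14.

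More class I genes were called higher than lower, and more class II genes lower than higher. Among class I and peptide loading genes 10 of 18 were higher (55.6%, against 39.9% of all genes) and 1 lower. The list median of 0.64 turned to -0.0063 with equal medians. Only the fall of Psmb7 (-0.42 ± 0.087) held under all scalings, which little test a lower call. H2-D1 was 4237, 2511, 4285, 2338 and 2737 against 7284, 4789.5, 6939, 4421 and 5524, at 0.87 ± 0.20. Nlrc5, the regulator gene of class I, was called at 1.08 ± 0.25, Psmb8, an immunoproteasome gene, at 0.98 ± 0.25 and Tapbp, the tapasin gene, at 0.84 ± 0.15, none of them under every scaling.

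In class II 4 of 11 were lower (36.4%, against 4.68% of all genes) and 1 higher, with a median of -0.40. The 4 lower calls held under all scalings, which little test a lower call. H2-Ab1 was 2724, 1742, 3166, 1922 and 2529 against 1191, 904, 1264, 909 and 761, which limma put at -1.25 ± 0.21 (adjusted p = 7.4e-05), and no ISAC tumour reached the isotype antibody range. H2-Aa was 5212, 3672, 6234, 3830.0 and 5564 against 3794, 2462, 3689.6, 2650.5 and 2276, at -0.72 ± 0.23, with ISAC replicates 1 and 3 above the lowest isotype antibody tumour. Cd74 was called at -0.50 ± 0.20, also with overlap. Ctss, the gene of cathepsin S, which trims the invariant chain, was the 1 higher gene, at 0.81 ± 0.14, not under every scaling. The sum of the list was 10559 to 16573 in the isotype antibody tumours and 8430 to 12160 in the ISAC tumours.

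Dendritic cell markers went both ways, 4 of 16 higher (25%, against 39.9% of all genes) and 2 lower (12.5%, against 4.68%). Their median of 0.13 was below 0 with equal medians, quantile normalization and median-ratio scaling. Itgax, the CD11c gene, was called at 1.44 ± 0.17. Cd83, a maturation marker, was 183, 103, 245, 217 and 161 against 119, 51.4, 79.5, 92.5 and 98.6, at -1.03 ± 0.24 (limma adjusted p = 0.00172), with overlap. Ccl22, like Ccl17 a ligand of CCR4, was 10.5 ± 7.17 against 22.4 ± 10.5 and was not called (limma adjusted p = 0.0705).

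Of 33 NK and cytotoxic genes 10 were higher (30.3%, below the 39.9% of all genes) and 0 lower, and 4 of the 10 calls held under the other scalings. The list had a median of 0.27 that was below 0 with equal medians, quantile normalization and median-ratio scaling, and 15 of the 33 had a mean below 10 in the isotype antibody tumours. Gzmb, the granzyme B gene, was 68.7, 92.9, 81.3, 78.4 and 40.8 against 267, 263, 369, 296 and 374, or 2.13 ± 0.20 on the log2 scale (adjusted p = 1.1e-07 by limma), without overlap. Gzma, granzyme A, was 98.8, 82.4, 149.7, 139.6 and 49.5 against 322, 247, 509.7, 366 and 440.3, at 1.91 ± 0.32, and the perforin gene Prf1 was 34.8, 33.5, 29.5, 34.6 and 9.71 against 102, 59.1, 124, 119.6 and 142, at 1.97 ± 0.37. Klra17, a Ly49-family gene whose probe could not be checked against near-identical relatives, was called at 2.09 ± 0.22. Ncr1, which encodes the NK receptor NKp46, was 127 ± 34.05 against 139 ± 41.4 and was not called, at 0.12 ± 0.22 with a 95% interval of -0.34 to 0.58.

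Lineage markers of T cells held few calls. In that list 4 of 26 were higher and 0 lower, 15.4% against 39.9% of all genes called higher, with a median of 0.55 against 0.36 that turned to -0.14 and -0.081 with equal medians and quantile normalization. Of the 26, 10 had a mean below 10 in the isotype antibody tumours, and few genes of low signal were called in the panel as a whole. Of the 4 calls 0 held under all scalings, Icos at 1.03 ± 0.37, Lck at 0.86 ± 0.23 and Cd27 at 0.85 ± 0.33 among them. Cd8a was 6.59, 4.79, 7.07, 2.66 and 5.82 against 9.14, 6.85, 2.06, 4.24 and 7.84, at 0.07 ± 0.36 (limma adjusted p = 0.886), near the floor. Foxp3, the transcription factor gene of regulatory T cells, was 3.74 ± 2.92 against 8.57 ± 6.09 and was not called (limma adjusted p = 0.158).

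Of B and plasma cell genes 8 of 23 were higher (34.8%, against 39.9% of all genes) and 0 lower. Their median of 0.43 turned to -0.17 with equal medians, and 7 of the 8 calls held. Of the 23, 14 had a mean below 10 in the isotype antibody tumours, and few genes of low signal were called in the panel as a whole. Cd79b, a B cell receptor signalling gene, was 5.65, 7.66, 10.6, 3.99 and 3.88 against 35.7, 33.4, 41.3, 26.3 and 34.7, at 2.33 ± 0.26 (limma adjusted p = 7.8e-07). Pou2f2, a transcription factor gene of B cells and macrophages, and Prdm1, which encodes BLIMP-1, went from 42.7 ± 5.21 to 199.8 ± 24.5 and from 23.8 ± 7.19 to 74.5 ± 15.2. Cd79a, the partner of Cd79b, picked out after its value was seen, was 2.204 ± 0.951 against 2.87 ± 1.09 and was not called, and the part of B cells in the other changes was not tested. In the mast cell, basophil and eosinophil list 3 of 14 were higher (21.4%) and 0 lower, and 9 of the 14 had an isotype antibody mean below 10. The list median of 0.47 turned to -0.094 with equal medians. Neither Ccr3 (1.28 ± 0.44) nor Il1rl1 (0.78 ± 0.26) held its call under every scaling.

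Inhibitory and co-stimulatory genes were both followed. Checkpoint and immunosuppression genes had 14 of 28 higher (50%, against 39.9% of all genes) and 0 lower with a median of 0.37 that was below 0 with equal medians, quantile normalization and median-ratio scaling. Of the 14 calls 3 held and 4 were called lower under at least 1 scaling. The list was led after Cd274 by Arg2, an arginase gene, at 3.27 ± 1.09 against 19.98 ± 7.85 (2.24 ± 0.26). For co-stimulation and the TNF superfamily 7 of 32 were higher (21.9%) and 3 lower (9.38%, against 4.68% of all genes). The list median of 0.27 was below 0 under the same 3 scalings. Tnfsf14, the LIGHT gene, was called at 1.79 ± 0.36, and Tnfsf13b, the BAFF gene, at 1.29 ± 0.26. Tnfsf18, the GITR ligand gene, was 113, 56.5, 71.9, 132 and 45.6 against 21.03, 25.7, 20.6, 17.8 and 56.02, which limma put at -1.55 ± 0.32 (adjusted p = 6.2e-04), with overlap through 1 ISAC tumour. Cd40 and Cd86, classic marks of activated antigen-presenting cells, were 30.9 ± 4.395 against 44.6 ± 18.2 and 64.8 ± 18.3 against 59.4 ± 11.9, and neither was called (limma adjusted p = 0.173 and 0.713).

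Adhesion molecules hold leukocytes to vessel walls and to each other. Of 26 integrins, selectins and ligands 10 were higher (38.5%, near the 39.9% of all genes) and 1 lower, with a median of 0.47 that turned to -0.20 and -0.046 with equal medians and quantile normalization, and 7 of the 11 calls held. In the SLAM family of leukocyte receptors 5 of 9 were higher (55.6%) and 0 lower with a median of 0.60, with Slamf7 at 1.31 ± 0.21 and Cd48 at 1.22 ± 0.16, and the calls of Ly9 and Sh2d1b1 did not hold under every scaling.

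**Figure D4:**
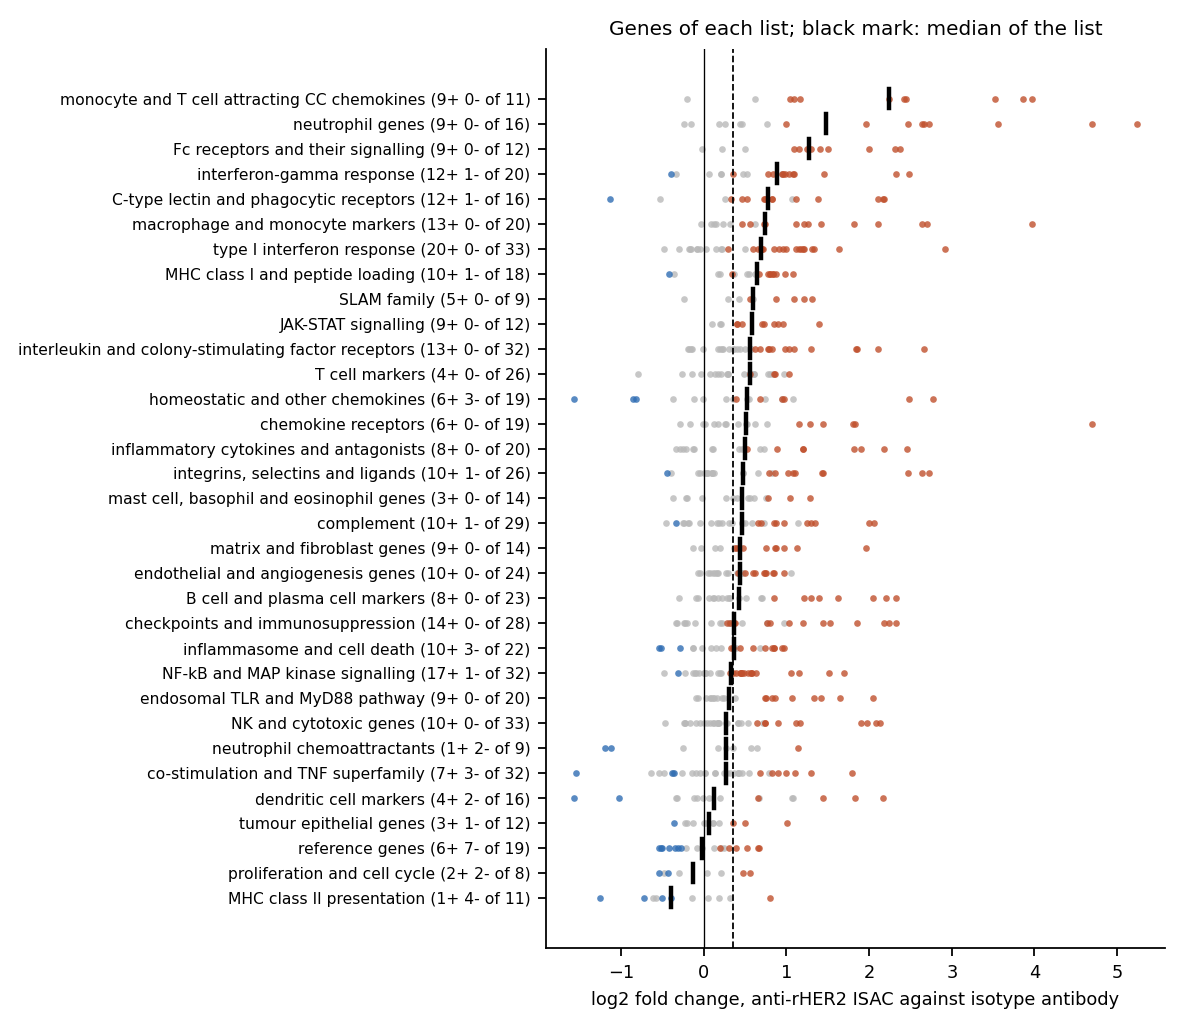
Log2 fold change of every measured gene (points) in 33 lists, anti-rHER2 ISAC against isotype antibody, with red for called higher, blue for called lower, grey for not called, a black mark at each list's median and a dashed line at the median of all genes, 0.36. The counts in brackets are higher (+) and lower (-) calls of the measured genes. Chemokines for monocytes and T cells, neutrophil genes and Fc receptors have the highest medians, and class II, proliferation and reference genes have medians below 0.

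Stromal genes were measured at high levels. Of 14 matrix and fibroblast genes 9 were higher (64.3%) and 0 lower, with a median of 0.44 that turned to -0.28 with equal medians, and Mmp9 alone held its call. Thbs1, the thrombospondin-1 gene, was called at 1.13 ± 0.16, Fn1 at 0.87 ± 0.12 and Cxcl12, a stromal chemokine gene, at 0.97 ± 0.26. Col3a1, a fibrillar collagen gene, was 9296 ± 1179 against 10945 ± 3026 and was not called. In the endothelial list 10 of 24 were higher (41.7%, near the 39.9% of all genes) and 0 lower with a median of 0.44 that turned to -0.27 and -0.10 with equal medians and quantile normalization, and 0 of the 10 held, including Eng (0.97 ± 0.14), Tie1 (0.85 ± 0.12) and Pecam1 (0.84 ± 0.15).

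Tumour epithelial genes had 3 of 12 higher (25%, against 39.9% of all genes) and 1 lower. Their median of 0.065 was below 0 with equal medians, quantile normalization and median-ratio scaling. Erbb2, the mouse counterpart of the antibody's target, was 1497, 1296, 1301, 1497 and 1177 against 1759, 2127, 1507, 2408 and 1851, at 0.50 ± 0.13 (limma adjusted p = 0.00316), a call that did not hold under every scaling and a sign that turned with equal medians. The sources used here do not say whether its probe reads the rat sequence. Muc1, a mucin gene of luminal epithelium, was called at 1.01 ± 0.15, not under every scaling, and Cd9 fell by 0.36 ± 0.095 on the log2 scale. Epcam was not called, although every ISAC tumour lay below every isotype antibody tumour in the ranges given above.

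Genes of growth and cell death were called in both directions. Proliferation genes had 2 of 8 higher (25%) and 2 lower (25%, against 4.68% of all genes) with a median of -0.13. The 2 lower calls were Birc5 (-0.54 ± 0.13), which encodes survivin, and Myc (-0.43 ± 0.15). The higher ones, Runx1 and Ccnd3, did not hold under every scaling. The lower ones did, but none of these scalings raised the median fold change, so lower calls are little tested by them. In the inflammasome and cell death list 10 of 22 were higher (45.5%, against 39.9% of all genes) and 3 lower (13.6%, against 4.68%). Its median of 0.36 turned below 0 with equal medians, quantile normalization and median-ratio scaling. Hmgb1, a chromatin protein gene whose product is an alarm signal outside cells, was 569, 470.4, 688, 709.9 and 513 against 390.4, 422, 385, 469.9 and 379, at -0.51 ± 0.15. The 3 lower calls held under all scalings, which again little test a lower call. The higher calls of Nod2 (0.97 ± 0.34) and Nlrp3 (0.95 ± 0.17) did not hold under every scaling. Bmi1, a Polycomb gene in no list, was called at -0.58 ± 0.18.

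Reference genes did not stand still, although their geometric mean is level by construction. Of 19 in the list 6 were higher (31.6%) and 7 lower with a median of -0.016, from Sap130 at 0.67 ± 0.19 and Gusb at 0.66 ± 0.13, whose signs turned with equal medians, to Rpl19 at -0.54 ± 0.13. Of the 13 calls 6, all of them lower, held under all scalings, which little test a lower call. Among these 6, Rpl19, a ribosomal protein gene, was 8676, 7951, 11025, 11321 and 8486 against 6585, 6094, 6741, 6123 and 6772. Outside all lists stood 197 genes, of which 68 were higher and 5 lower with a median of 0.23.

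Replicates of the groups had a like spread. Over 533 genes of mean signal above 20, the median SD of log2(signal + 1) was 0.244 among ISAC tumours and 0.238 among isotype antibody tumours. Still, ISAC replicate 2 held the lowest of the 5 ISAC values for 178 of the 307 higher genes, and replicate 3 held the highest for 143. Without replicate 2, 328 genes were higher and 32 lower, and without replicate 3, 276 and 31. Over the 10 fits that left out 1 tumour each, 255 of the 307 higher and 24 of the 36 lower genes kept their call every time.

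Set against the other 2 groups, the ISAC tumours stood apart for part of the panel. For 85 genes (11.04%) all 5 ISAC tumours lay above all 15 others, and for 3 genes (0.3896%), C1qbp, H2-Ab1 and Ppia, all lay below. Against plain anti-rHER2, which shares its target, 151 genes were higher (19.6%) and 23 lower (2.99%). Against the isotype ISAC, which shares its payload, 277 were higher (35.97%) and 30 lower (3.896%). These comparisons share the ISAC tumours with the one above and are given for its genes side by side.

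S100a8 was 30.4 ± 8.43 with the isotype antibody, 39.1 ± 11.2 with the isotype ISAC, 139 ± 41.3 with anti-rHER2 and 1225 ± 442 with the anti-rHER2 ISAC, which was above anti-rHER2 by 3.10 ± 0.30 on the log2(signal + 1) scale (limma adjusted p = 3.5e-07). Cxcr2 was 3.74 ± 2.396, 3.66 ± 2.2, 24.9 ± 6.22 and 113 ± 35.1 in the same order, and above anti-rHER2 by 2.13 ± 0.36 (limma adjusted p = 2.9e-04). For both genes plain anti-rHER2 lay between the isotype antibody and the anti-rHER2 ISAC. Ccl4 differed in that anti-rHER2 was at 8.11 ± 3.48 and the isotype ISAC at 5.92 ± 2.57, both near the 5.46 ± 1.91 of the isotype antibody. Fcgr4 was 128 ± 15.1 with the isotype ISAC and 125 ± 26.1 with anti-rHER2, against 129.9 ± 15.9 and 653 ± 126 in the compared groups. For Ccl4 and Fcgr4 the anti-rHER2 ISAC alone stood high among the 4 groups. Tlr8 was 156 ± 27.1 with anti-rHER2, and the anti-rHER2 ISAC was above it by 0.64 ± 0.17 (limma adjusted p = 0.00957). H2-Ab1 was 1990.3 ± 481 with the isotype ISAC and 2486 ± 576 with anti-rHER2, and the anti-rHER2 ISAC stood at -1.30 ± 0.21 against anti-rHER2 (limma adjusted p = 1.3e-04). Cd83 was 119 ± 17.2 with the isotype ISAC, where the difference from the anti-rHER2 ISAC was -0.47 ± 0.24 (limma adjusted p = 0.125).

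**Figure D5:**
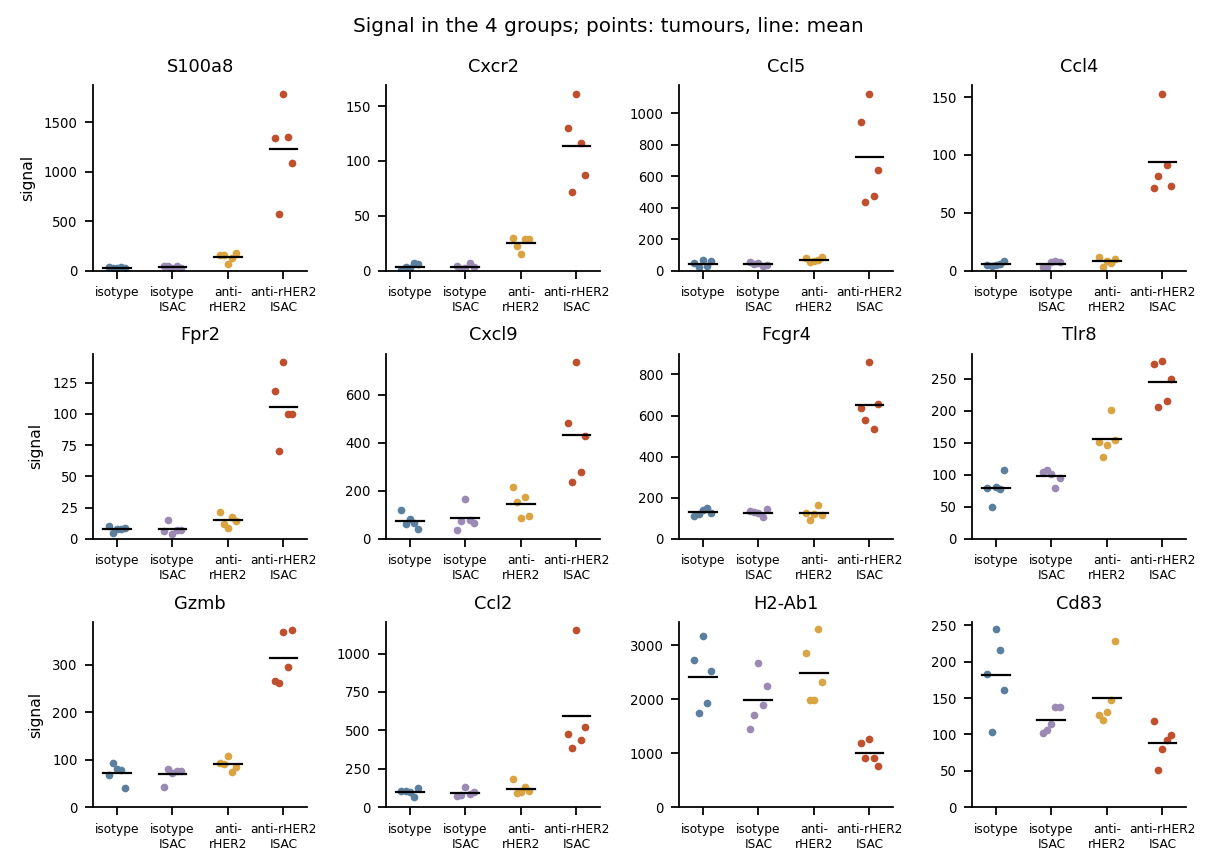
Signal (y axis, linear, from 0) of 12 genes in each tumour of the 4 groups, with a line at the mean of 5 tumours. The anti-rHER2 ISAC tumours hold the highest mean for 10 genes and the lowest for H2-Ab1 and Cd83.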

How the data were processed

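RNA of 20 tumours from RNAlater was extracted by RNeasy and counted with nCounter probes, per the labels. Each tumour has a deposited normalized signal for 770 genes, and the labels do not say how the authors normalized it. In every tumour 100% of values above 1 and up to 1000 were whole multiples of 1 step (0.826 to 1.33), within 0.02 of a count, and dividing by it gave the totals printed above. The geometric mean of 20 reference genes was 389.26 to 389.27 in all tumours. The sources used here give no cartridge or run, and no batch could be tested. No 2 tumours had identical values.

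The log2(signal + 1) values of all 20 tumours were fitted with limma 3.58.1 in R 4.3.3, with a mean per group and eBayes without a trend. P-values were 2-sided and adjusted by Benjamini-Hochberg over 770 genes, none of which was filtered out. Fold changes understate changes near the floor. Exact permutation tests were used for the 3 values per tumour. Alternatives were 4 scalings, a filter on low genes, a pseudocount of 10, the 2 groups alone, array weights, a replicate block, an unmoderated test with unequal variances, a robust prior with a trend, edgeR 4.0.16 and DESeq2 1.42.0 on the recovered counts, counts thinned to equal totals, a minimum fold change of 1 on the log2 scale, and leaving out each tumour. The limma fit was also run on data simulated with as many rises as falls, which says nothing about the scaling.

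Comparison, lists and the rule for named genes were chosen with earlier results of these data known. Named were the 20 highest and 15 lowest fold changes, 12 largest rises and 8 largest falls of signal among called genes (reference genes left out), up to 4 members of each of 33 lists with the largest change, the 8 highest signals, 5 widest spreads among ISAC tumours and 20 genes named in any case. Of these, 7 genes are not reported here. Of the 770 symbols 762 matched RefSeq GRCm38.p6, and they are printed as deposited. The sources used here hold no probe sequences.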

Additional observations from a re-analysis of the deposited data

Results flagged for a closer look

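Within a group of 5 tumours, 17 of 306 sets of values of named genes held 1 tumour far from the other 4 by Dixon's ratio of gap to range, and chance alone gives about 1 in 20. ISAC replicate 3 held 7 of them. It was high for the chemokine genes Ccl2 (1152.5, the others 385 to 522) and Ccl3 (268, the others 95.2 to 128) and for Trem1 (27.9, the others 15.4 to 17.8). It was low for Clu (1624, the others at least 2553), Fos (167, the others at least 493), Lcn2 (96184, the others at least 125589) and Ptgs2 (14.4, the others at least 87.8). ISAC replicate 2 held 5, all low, namely Cd86 (39.4), Csf3r (61.6), Cxcl10 (98.5), Il6 (4.28) and Ly9 (16.3), where the other 4 tumours were at least 60.2, 134, 149.96, 9.14 and 50.04.

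In the isotype antibody group, replicate 4 was low for Gbp5 (33.2, the others at least 47.6) and Il21r (14.6, the others at least 34.5). Replicate 2 was low for Ifitm1 (11.5, the others at least 21.3) and Sh2d1b1 (5.75, the others at least 16.0). Replicate 5 was low for Prf1 (9.71, the others at least 29.5).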

How the results depend on the processing

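The split into higher and lower calls rests on the scaling. With equal medians, quantile normalization and median-ratio scaling 92, 130 and 155 genes were higher and 277, 182 and 143 lower (369, 312 and 298 in all), and the median of all genes was -0.30, -0.095 and -0.021 against 0.36. The difference in genes above a signal of 20 per tumour turned to -2.6 with equal medians, and that in summed signal to -0.46 with equal medians and -0.14 with median-ratio scaling. With equal medians the sign turned for Apoe (-0.64), App (-0.36), Ccnd3 (-0.24), Col3a1 (-0.53), Erbb2 (-0.22), Gusb (-0.065), H2-K1 (-0.061), Lcn2 (-0.54), Ncr1 (-0.60), Runx1 (-0.16), Sap130 (-0.050), Sdha (-0.20) and Vim (-0.32). It turned with quantile normalization for Ccnd3 (-0.20) and Sdha (-0.062), and with median-ratio scaling for Apoe (-0.32), App (-0.042) and Vim (-0.0069). The cause was not tested. A minimum absolute log2 fold change of 1 left 139 calls, 132 higher and 7 lower. Leaving out 1 tumour gave 303 to 360 calls. By edgeR 313 and 37, by DESeq2 315 and 38, with unequal variances 262 and 28, and with thinned counts 288 and 30 genes were higher and lower. A fit of the 2 compared groups alone gave 288 higher and 31 lower. With the replicate block 309 were higher and 33 lower, of which 298 and 32 are shared with the calls above. Same-numbered tumours of the 2 groups had correlated deviations of 0.110, 0.176, 0.182, 0.126 and -0.0662. Pairs were taken only where all 5 are over 0.1, so the numbers were not taken as pairs, and Ccl22 was called with the block (adjusted p = 0.0386, from 0.0221 to 0.431 over all alternatives). Genes near the floor rest on a few counts, which limits what can be seen of them.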
